A study of Mus musculus with 7 samples.

Results

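The Notch receptors, ligands and targets described here are 10 genes: the receptors Notch1, Notch2 and Notch3, the ligands Jag1 and Dll4, the glycosyltransferase Lfng, and the targets Hes1, Hey1, Hey2 and Heyl. The list was drawn up with earlier results of these data known. Its genes were looked up by name, and all 10 were found among the 31053 genes of the count tables. Levels were read in 5 classes of cells: germ cells (Dazl and Ddx4), epithelium (Upk3b), pregranulosa cells (Wnt6 and Kitl), stroma (Col1a1 and Col1a2) and endothelium (Cdh5). None of these gating genes is a member.

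The study profiled single cells of C57BL/6J mouse gonads, pooled per the study's methods,, untreated and unsorted, in 7 libraries of 1 age each, from P5 back through P1, E18.5, E16.5, E14.5 and E12.5 (labelled ovary) to E11.5 (labelled gonad). A UMI of a Y-linked gene was found in 45.5% of the pregranulosa-gated cells at E11.5, and also in 9.07% of those at E12.5, against the label of that library. At E11.5 the share was 35.7% in epithelium, 33.0% in stroma and 32.4% in endothelium. At E12.5 it was 5.69% in germ cells, 5.84% in epithelium, 4.27% in stroma and 14.3% in endothelium (4 of 28 cells). Values of these ages are thus not of female cells alone. Trypsin dissociation lasted 20 min at E11.5 and E12.5, 40 min at E14.5 and E16.5, 60 min at E18.5 and 80 min at P1 and P5, so between ages of unequal times, dissociation and age cannot be told apart. With 1 library per age there is no replicate of an age, and intervals on levels cover counting error only.

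Notch receptors are cell-surface proteins that are cut when a ligand of the Delta or Jagged family on a neighbouring cell binds them. The freed intracellular part joins the DNA-binding protein Rbpj and turns on genes of the Hes and Hey families, which encode transcriptional repressors. Fringe enzymes such as Lfng add sugars to the receptors and change which ligands act on them. In vessels, Dll4 and Notch1 pattern sprouting endothelium and Notch3 serves mural cells, and in the ovary Jag1 of germ cells and Notch2 of pregranulosa cells are known from studies of primordial follicle formation.

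Of 52542 cells called, 50823 had at least 200 genes and were kept, with 31960736 to 124390521 UMIs per library and a median of 6349 to 11060 UMIs per cell. A single gate was passed by 29247 cells (57.5%), and the 2494 cells that passed several were left out. The classes held 3888 germ cells, 952 epithelial cells, 11500 pregranulosa cells, 12460 stromal cells and 447 endothelial cells. Markers outside the gates mostly followed them. Pooled over libraries, Sycp3 was 954 CPM in germ cells, Krt19 269 CPM in epithelium and Foxl2 198 CPM in pregranulosa cells. Pdgfra was 146 CPM in stroma and Pecam1 514 CPM in endothelium. The epithelial markers Msln and Lhx2 stood at 7.56 and 1.46 CPM in epithelium, and Lhx2 was higher in germ cells (6.22 CPM) and stroma (2.85 CPM). The stromal markers Nr2f2 and Dcn also stood at 237 and 175 CPM in epithelium, against 401 and 939 CPM in stroma. Of the pregranulosa markers, Rspo1 hardly set the class apart, at 115 CPM against 107 CPM in epithelium. Amhr2 was 310 CPM in pregranulosa cells and 132 CPM in epithelium. Wnt4 was 328 CPM in pregranulosa cells and 163 CPM in stroma, where Foxl2 stood at 44.7 CPM. Between 2.29% (germ) and 28.0% (epithelium) of a class lay exactly at its gate. The E16.5 library stood apart in that it shared 0 to 3 cell barcodes with any other library, where other pairs shared 22 to 136, and it had the highest mitochondrial share (8.50%). A single droplet chemistry is stated for all libraries, but the barcodes of E16.5 hardly met those of the others, and whether it was made with another chemistry was not tested. Differences of E16.5 from its neighbouring ages cannot be told apart from such a difference between libraries. CPM here means UMIs of a gene per 1000000 UMIs of the class in a library, and sums of fewer than 20 cells (the 7 germ cells at E11.5) entered no comparison. Because the libraries hold 3' tags, levels were compared between classes and ages for the same gene, not between genes.

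Rbpj binds a short core site in DNA, and the promoters of Hey2 and Lfng are shown because a match to it stands in both. The core searched was GTGGGAA, on both strands, in the 250 bases before each RefSeq start (GRCm38.p6), which for Notch1 lies within the longer GENCODE gene. Promoters were found for 7 of the 10 members. Hey2 and Lfng held the match, and Notch1, Notch2, Notch3, Jag1 and Dll4 held none in this window. Hes1, Hey1 and Heyl had no entry. Of 32851 promoters, 5.42% held the match. The stretches below run 5′ to 3′ along the gene, with the match in capitals, and lie at chr10:30842784-30843033 on the minus strand (Hey2) and chr5:140607091-140607340 on the plus strand (Lfng).
Hey2: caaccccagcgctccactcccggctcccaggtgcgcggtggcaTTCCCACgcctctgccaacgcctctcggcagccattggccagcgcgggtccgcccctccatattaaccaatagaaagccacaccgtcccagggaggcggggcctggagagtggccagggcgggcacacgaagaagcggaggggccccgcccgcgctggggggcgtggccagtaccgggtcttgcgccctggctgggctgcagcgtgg
Lfng: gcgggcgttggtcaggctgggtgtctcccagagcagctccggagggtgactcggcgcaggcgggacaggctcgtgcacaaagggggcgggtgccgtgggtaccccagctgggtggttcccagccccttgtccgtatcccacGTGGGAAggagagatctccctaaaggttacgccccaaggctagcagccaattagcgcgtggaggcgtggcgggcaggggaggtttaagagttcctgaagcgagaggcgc
In Hey2 the match was on the strand opposite to the gene and began 207 bases before the start, and in Lfng it was on the same strand and began 109 bases before it. A match is a description of the letters and not a bound site.

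Notch1 (chr2:26457903-26516663, GRCm38) was highest in endothelium among the 5 classes. Its level there was 82.5, 129, 107, 245, 129, 158 and 137 CPM from E11.5 to P5. Every endothelial library lay above every sum of the other classes, whose highest value was 31.6 CPM in stroma at E16.5. How many of all genes are so separated was not counted. The stromal cells with mural markers, described below, held 11.7 CPM at E11.5 and 91.6 CPM at E16.5. The latter is above the endothelial value of E11.5 and below that of E16.5. Endothelium averaged 141 ± 51.8 CPM (SD, 7 libraries), stroma 18.8 ± 8.82 CPM, epithelium 7.16 ± 6.26 CPM, pregranulosa cells 5.92 ± 5.70 CPM and germ cells 5.40 ± 5.15 CPM (6 libraries). Against the mean of the other 4 classes, endothelial Notch1 was higher by 4.30 ± 0.36 on the log2 scale (SE; edgeR quasi-likelihood test with library as a block, adjusted p = 2.4e-11). In germ cells Notch1 stood at 12.8, 10.2, 6.01, 1.42, 1.15 and 0.831 CPM from E12.5 to P5, the last 3 values from 6 UMIs or fewer. The ratio of E18.5 to E16.5 was 0.236 (95% exact interval 0.0851 to 0.530). In pregranulosa cells it stood between 1.82 and 4.86 CPM up to P1 and at 18.7 CPM at P5, and the E12.5 value of 4.28 CPM was 2.93 CPM in the cells without Amh, which nearly all lacked Y-linked UMIs.

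Dll4 (chr2:119325784-119335962), a ligand known from sprouting vessels, was also found in endothelium and hardly elsewhere. Endothelial levels were 21.8, 47.6, 39.1, 142, 57.1, 181 and 264 CPM from E11.5 to P5. In the other classes it lay between 0 and 2.47 CPM, with 0 to 12 UMIs per sum. The endothelial share of cells with a Dll4 UMI was 27.9% at E11.5 (19 of 68 cells) and 86.1% at P5 (31 of 36 cells, exact binomial interval 70.5 to 95.3%). Thinned to 2000 UMIs per cell these shares were 6.44 and 36.3%, and in erythroid cells, which should lack the gene, at most 0.510% of cells held a UMI. The level at P5 was 6.75 times that at E14.5 (95% exact interval 4.61 to 10.1), from 137 and 34 UMIs. The fitted log2 difference of endothelium from the other classes, 8.88 ± 0.31, depends on the prior count because so few UMIs lay outside endothelium (edgeR, adjusted p = 3.0e-20).

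Notch2 (chr3:98013527-98150361) had the opposite distribution and was a receptor of stroma, pregranulosa cells and epithelium. In stroma it stood at 48.7, 33.4, 91.1, 43.9, 79.2, 40.4 and 29.9 CPM from E11.5 to P5. In pregranulosa cells the values were 21.9, 17.7, 61.1, 26.0, 63.3, 30.4 and 27.5 CPM. Both classes had their 2 highest values at E14.5 and E18.5, and germ cells too were highest there, at 16.6 and 17.5 CPM. Stroma was above pregranulosa cells in 7 of 7 libraries. Endothelium held 0 to 9.34 CPM and was lower than the mean of the other classes by 2.89 ± 0.38 on the log2 scale (edgeR, adjusted p = 3.3e-07). Stroma was higher by 1.91 ± 0.22, pregranulosa cells by 1.05 ± 0.23 and epithelium by 0.97 ± 0.28 (adjusted p = 3.7e-08, 4.8e-04 and 0.012). The epithelial call was lost without the P5 library, where epithelium reached 51.7 CPM (0.65, adjusted p = 0.097), and without the library block (0.82, adjusted p = 0.11).

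Notch3 (chr17:32120820-32166852), the receptor known from mural cells, was highest in stroma in every library. It stood there at 25.3, 19.7, 12.505, 51.4, 24.6, 12.0 and 12.3 CPM from E11.5 to P5. No other class reached more than 12.8 CPM, the level of epithelium at E11.5. Stroma exceeded pregranulosa cells, the next class by mean, in 7 of 7 libraries. Its difference from the other classes was 3.16 ± 0.27 on the log2 scale (edgeR, adjusted p = 8.4e-11).

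**Figure D1:**
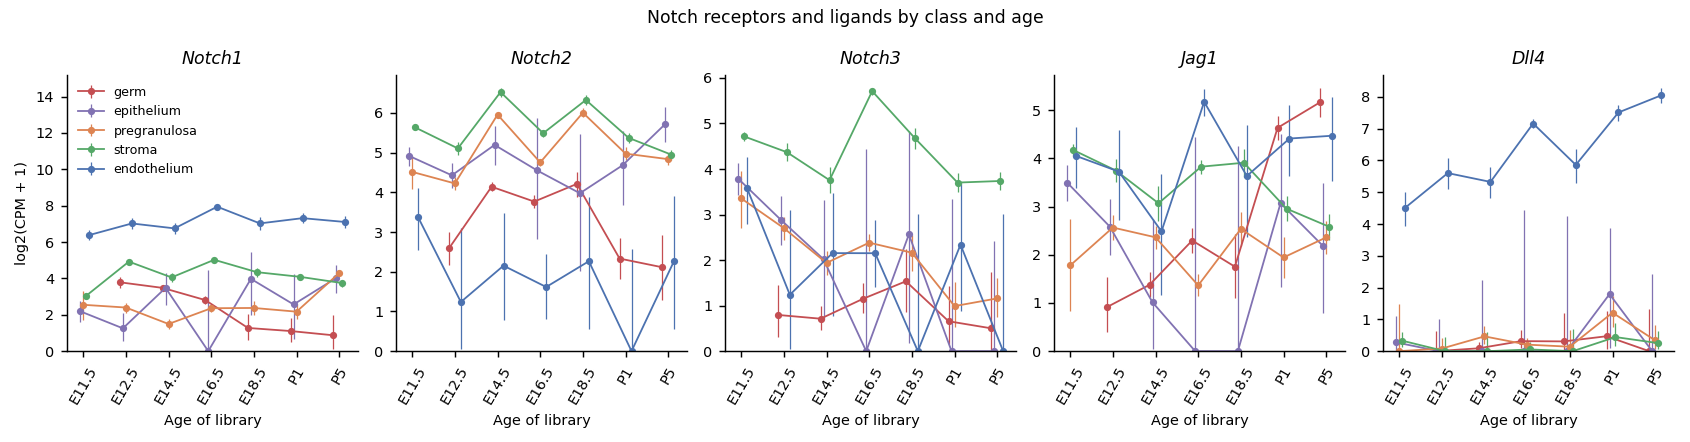
Levels of the receptors and ligands as log2(CPM + 1), against the age of the library, with 1 line per class and bars for the 95% exact Poisson interval of the count; sums of fewer than 20 cells are left out. Notch1 and Dll4 run highest in endothelium at every age, Notch3 in stroma, and germ cell Jag1 lies at 23.8 and 34.9 CPM at P1 and P5.

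Jag1 (chr2:137081456-137116644) stood higher in germ cells after birth than before it. The germ cell level was 0.883, 1.60, 3.91, 2.37, 23.8 and 34.9 CPM from E12.5 to P5. The 2 libraries after birth were thus above all the earlier ones. P1 was 10.1 times E18.5 (95% exact interval 5.29 to 21.5, from 124 and 10 UMIs), and P5 was 1.47 times P1 (1.10 to 1.95). A Jag1 UMI was found in 2.88% of germ cells at E18.5, 37.8% at P1 (70 of 185) and 74.4% at P5 (32 of 43). The germ cells of P5 were deeper, with a median of 61318 UMIs against 13132.5 at E18.5, and thinned to 2000 UMIs the shares were 0.463, 4.85 and 6.56%. The pregranulosa cells of the same libraries had 4.80, 2.85 and 4.14 CPM, and 0.670 and 1.05% of erythroid cells held a UMI at P1 and P5. Pregranulosa markers summed to 15 and 21 CPM in germ cells at P1 and P5, against 1534 and 1287 CPM in pregranulosa cells.

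Jag1 also ran in endothelium, at 15.6, 12.2, 4.60, 35.1, 11.4, 20.3 and 21.2 CPM, and in stroma, at 4.99 to 17.1 CPM. The endothelial difference was 1.49 ± 0.46 on the log2 scale (edgeR, adjusted p = 0.0086). It was lost without the E16.5 library, which had the highest endothelial value (0.96, adjusted p = 0.13). In pregranulosa cells Jag1 was lower by 1.31 ± 0.47 (adjusted p = 0.024), and in 4 of 17 alternative settings this call was lost.

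Lfng (chr5:140607320-140615545) was a gene of low level. It stood at 2.34, 13.6, 25.3, 9.29 and 13.3 CPM in endothelium from E11.5 to E18.5, and no UMI was found at P1 or P5, which allows up to 4.99 and 7.10 CPM. In epithelium it was 7.35, 13.3 and 8.14 CPM at the first 3 ages and 2.47 to 5.61 CPM later, from 1 to 3 UMIs each. Endothelium and epithelium were higher than the mean of the other classes by 2.37 ± 0.40 and 1.98 ± 0.45 on the log2 scale (edgeR, adjusted p = 1.6e-05 and 0.0018). Pregranulosa cells were lower by 2.51 ± 0.46 (adjusted p = 5.0e-05), with 0.102 to 1.56 CPM. Erythroid cells held 7.19 CPM at E18.5 and 3.64 CPM at P1, above the 0.409 and 0.438 CPM of pregranulosa cells of the same libraries.

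Hes1 (chr16:30064384-30067796) was found in all somatic classes. In pregranulosa cells its level was 533, 740, 414, 810, 383, 904 and 892 CPM from E11.5 to P5. Stroma stood at 457, 802 and 417 CPM at the first 3 ages and at 221 to 279 CPM afterwards. In germ cells the level was 13.4 to 31.6 CPM from E12.5 to E16.5 and 148, 141 and 67.3 CPM at E18.5, P1 and P5, and erythroid cells held 6.59 to 23.8 CPM. Germ cells were the lowest of the 5 classes in every library with a log2 difference of -3.26 ± 0.50 from the mean of the others (edgeR, adjusted p = 1.6e-06). Pregranulosa cells were higher by 0.84 ± 0.34 (adjusted p = 0.047), a call lost in 12 of 17 alternative settings with adjusted p up to 0.15.

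Endothelial Hes1 changed most over age, at 835, 790, 311, 939, 225, 3054 and 4932 CPM. P1 was 13.6 times E18.5 (95% exact interval 11.3 to 16.51), from 40 and 41 cells. The 10 genes of a dissociation response (Fos, Jun, Hspa1a and others) summed to 3811, 11360 and 7193 CPM in endothelium at E18.5, P1 and P5. In stroma Hes1 was 221, 279 and 246 CPM at those ages and the sum 3816, 4683 and 4314 CPM. In pregranulosa cells the sum at E18.5 was 7867 CPM with Hes1 at 383 CPM, and at E12.5 it was 1863 CPM with Hes1 at 740 CPM. Pregranulosa Hes1 was at its highest at P1, at 904 CPM, with Fos at 1897 and Jun at 2687 CPM. At E18.5 Fos and Jun were 1664 and 2279.5 CPM in these cells. Endothelial Hes1 was higher than the mean of the other classes by 2.16 ± 0.35 on the log2 scale (edgeR, adjusted p = 8.9e-06). That mean includes germ cells, where Hes1 was lowest. Endothelium was above pregranulosa cells in 5 of 7 libraries, and at E18.5 it was below them, at 225 against 383 CPM. Over the same class contrasts the 10 dissociation genes had a median log2 difference of -4.15 in germ cells, 1.17 in pregranulosa cells and 1.56 in endothelium. Their median was 1.22 in epithelium and 0.79 in stroma, where Hes1 differed by 0.14 and 0.13 and did not pass the test. The part of dissociation in these levels and class differences was not tested.

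Hey1 (chr3:8663359-8667256) had a level of 57.6, 61.2, 25.3, 55.4, 13.3, 66.3 and 77.0 CPM in endothelium and was higher there by 2.34 ± 0.37 on the log2 scale (edgeR, adjusted p = 6.5e-06). In pregranulosa cells it stood at 79.2, 33.3, 20.7, 11.0, 9.40, 12.48 and 59.8 CPM from E11.5 to P5. The first and the last age were thus the highest. At E11.5 the gate held 176 cells, of which 45.5% had a Y-linked UMI. The paper takes Wnt6-positive cells of that age as likely bipotential precursors. The pregranulosa difference from other classes, 0.91 ± 0.35, passed the test (adjusted p = 0.037) but was lost in 9 of 17 alternative settings. Germ cell Hey1 was 22.8 CPM at E12.5, 4.50 at E14.5 and 1.03 at E16.5.

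Hey2 (chr10:30832359-30842801), whose promoter is printed above, and Heyl (chr4:123233556-123249875) were highest in stroma from E11.5 to E16.5, and in pregranulosa cells at P5. In stroma Hey2 stood at 10.9, 36.0, 5.40, 12.3, 3.30, 4.17 and 1.34 CPM and Heyl at 9.46, 28.5, 15.9, 29.2, 20.1, 11.4 and 14.51 CPM. In pregranulosa cells Hey2 was 1.23 to 6.14 CPM up to P1 and 32.0 CPM at P5, and Heyl 1.23 to 5.58 CPM and 38.3 CPM. Epithelium held 0 to 5.27 CPM of Hey2 and at most 10.6 CPM of Heyl, and germ cells at most 1.22 CPM of either. Stroma, with its mural-marker cells included, was higher than the mean of the other 4 classes by 2.41 ± 0.44 for Hey2 and 3.61 ± 0.36 for Heyl on the log2 scale (edgeR, adjusted p = 6.2e-05 and 2.2e-09).

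**Figure D2:**
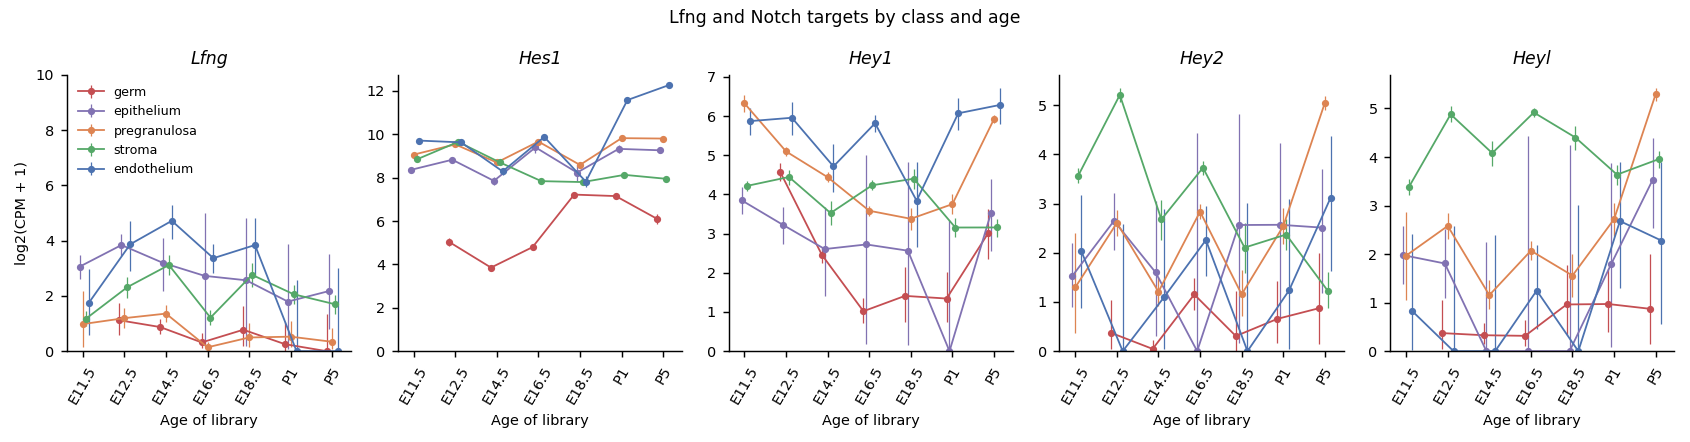
Levels of Lfng and of the targets as log2(CPM + 1), against the age of the library, drawn as for the receptors with 95% exact Poisson intervals. Pregranulosa Hey1, Hey2 and Heyl stand higher at P5 than at P1, endothelial Hes1 is highest at P1 and P5, and germ cells have the lowest Hes1 throughout.

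In pregranulosa cells Hey2, Heyl, Notch1 and Hey1 stood higher at P5 than at P1, both dissociated for 80 min. The share of all genes that differed between these libraries was not computed, so nothing is read from the number of members. Hey2 at P5 was 6.65 times P1 (95% exact interval 4.85 to 9.31), Heyl 6.86 times (5.12 to 9.35), Notch1 5.33 times (3.66 to 7.98) and Hey1 4.79 times (3.92 to 5.89). Notch2 (0.905, 0.768 to 1.07) and Hes1 (0.987, 0.959 to 1.02) had intervals that included 1, as did Notch3, Jag1 and Lfng. Dll4 was lower, at 0.201 times (0.0364 to 0.745), from 3 and 12 UMIs. A Heyl UMI was found in 4.07% of cells at P1 and 27.1% at P5, or 1.04 and 7.13% after thinning, and in 0.446 and 1.75% of erythroid cells. The 5 mural markers summed to 15.2 and 28.0 CPM and the 4 stromal ones to 57.5 and 71.7 CPM in these pregranulosa cells (1890 CPM of mural markers in mural cells at P5), and their part in the result was not tested. These ratios compare a single library with another, so the spread between ovaries of an age is not known.

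At P5 the pregranulosa cells could be split by Amh, a hormone of growing follicles, and by Gng13, which the study used for pregranulosa cells of epithelial origin. The Amh split was chosen after values were seen. Hey1 was 40.4 CPM in the 210 Amh-positive cells and 66.5 CPM in the 833 Amh-negative cells, a ratio of 0.608 (95% exact interval 0.486 to 0.753). Notch2 was 14.52 against 34.5 CPM (0.421, 0.289 to 0.596) and Hes1 423 against 1090 CPM (0.388, 0.364 to 0.414). Heyl was 45.1 against 38.0 CPM (1.19, 0.947 to 1.48). Notch1 (0.541, 0.353 to 0.803) and Hey2 (0.728, 0.542 to 0.967) were lower in Amh-positive cells. In Gng13-positive against Gng13-negative cells of P5, Notch1 (1.60, 1.11 to 2.26) and Heyl (1.33, 1.03 to 1.70) were higher. Hey1 (0.780, 0.615 to 0.980) and Hey2 (0.609, 0.421 to 0.858) were lower there. The 4 members that stood higher at P5 were thus found on both sides of each split, though not evenly, with Hey2 at 20.3 CPM or more.

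**Figure D3:**
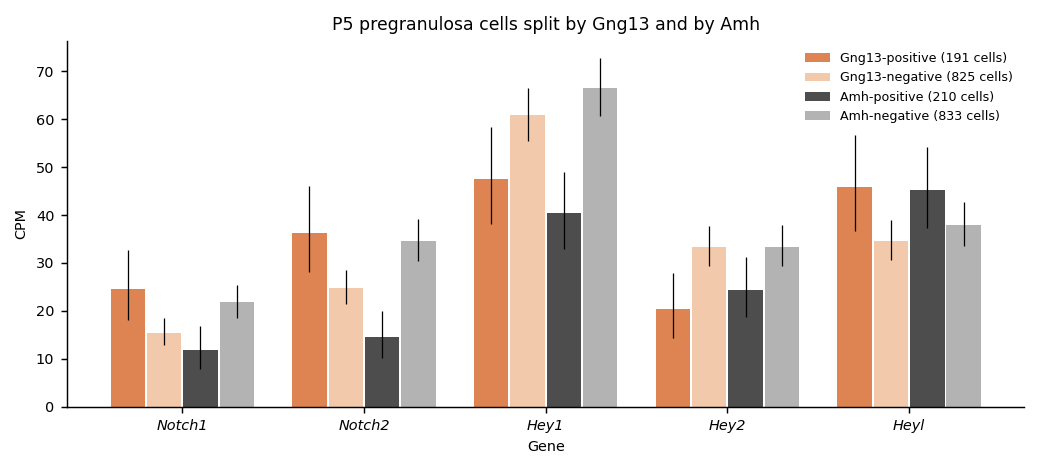
Levels at P5 in CPM (bars, from 0) of 5 members in pregranulosa cells split by Gng13 (at least 2 UMIs against 0) and by Amh (likewise), with 95% exact Poisson intervals. Notch2 is 14.52 CPM in Amh-positive and 34.5 CPM in Amh-negative cells, while Heyl lies between 34.6 and 45.9 CPM in the 4 sets.

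Over the 5 libraries from E14.5 to P5, 2 of the 8 members tested were lower in Gng13-positive than in Gng13-negative pregranulosa cells, where 9.48% of all tested genes were lower. Hey2 was lower by 0.90 ± 0.22 on the log2 scale (edgeR, library as a block, adjusted p = 0.021), with 1.06, 3.78, 1.44, 3.25 and 20.3 CPM in positive and 2.73, 8.90, 0.725, 5.83 and 33.3 CPM in negative cells. The direction thus held in all libraries but E18.5, and the call was lost in 4 of 15 alternative settings, among them without the E16.5 library (adjusted p = 0.15) and without the library block (adjusted p = 0.96). Notch3 was lower by 0.98 ± 0.29 (adjusted p = 0.042) and lost the call in 8 of 14 alternative settings. None was higher, against 9.96% of tested genes. Dll4 and Lfng were too low to be tested.

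Mural cells, the smooth muscle and pericytes around vessels, were taken as the stromal cells with at least 3 UMIs over Rgs5, Kcnj8, Abcc9 and Cspg4. There were 1028 of them, with 451, 70, 26, 265, 44, 110 and 62 cells from E11.5 to P5. The gate took a larger part of the stroma at E11.5 (451 of 2341 cells) than at E16.5 (265 of 2544) or P5 (62 of 2575). Whether the E11.5 cells are smooth muscle or pericytes was not tested, and mural cells here means cells that passed the gate. Against the rest of the stroma, 6 of the 9 members tested were higher and none lower, where 3.22% of tested genes were higher and 1.38% lower. Heyl led, at 26.4, 101, 131, 163, 120, 86.2 and 70.8 CPM in mural cells and 5.04, 19.5, 12.3, 10.5, 14.2, 6.94 and 13.2 CPM in other stroma, a log2 difference of 3.04 ± 0.20 (edgeR, library as a block, adjusted p = 4.0e-07). The lowest mural value (26.4 CPM) lay above the highest of the other stroma (19.5 CPM), and how many of all genes are so separated was not counted. Hey2 was higher by 2.45 ± 0.40, Jag1 by 1.83 ± 0.25, Notch3 by 1.57 ± 0.25, Notch1 by 1.41 ± 0.18 and Hey1 by 0.81 ± 0.17 (adjusted p = 0.0020, 4.8e-04, 0.0016, 2.7e-04 and 0.0093). The Hey1 call was lost without the E11.5 library (adjusted p = 0.063), and the calls of Notch1, Hey1, Hey2 and Notch3 were lost without the library block.

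In single libraries, mural Notch3 was 31.2, 34.1 and 23.4 CPM up to E14.5 and 140, 90.7, 49.4 and 81.7 CPM from E16.5 on. The ratio to other stroma was 1.32 at E11.5 (95% exact interval 1.10 to 1.56) and 7.66 at P5 (5.01 to 11.4). At E14.5 it was 1.93 (0.610 to 4.68), from 5 mural UMIs. Notch2 did not pass the test, with a difference of -0.25 ± 0.15 (adjusted p = 0.52). Endothelial markers summed to 20 to 131 CPM in mural cells against 1961 to 2883 CPM in endothelium, and no mural sum held a Dll4 UMI. The other stroma kept Notch2 at 30.3 to 92.2 CPM and Heyl at 5.04 to 19.5 CPM. Its Hey2 was 7.72, 33.7, 4.98, 5.15, 1.05, 2.52 and 1.05 CPM from E11.5 to P5. Without the mural cells, 24 stromal levels of members left the 95% interval of the whole stroma and 46 stayed within it. The class contrasts were not run without these cells.

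**Figure D4:**
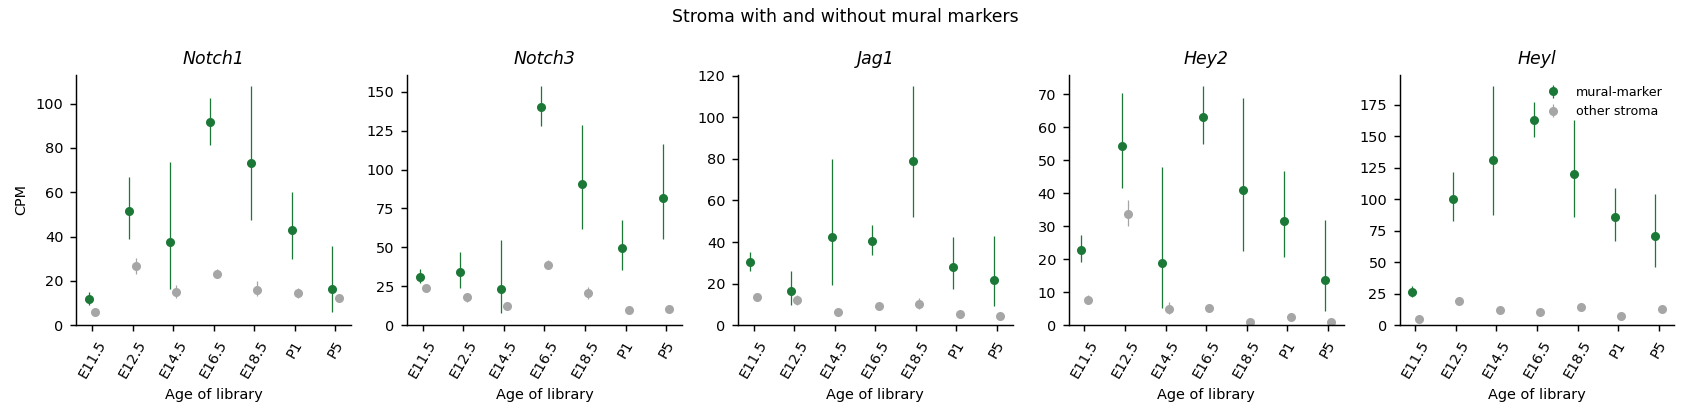
Levels in CPM of 5 members in stromal cells with mural markers (green) and in the other stromal cells (grey) in each library, with 95% exact Poisson intervals. Heyl and Notch3 are higher in the mural cells in all 7 libraries, with Heyl at 26.4 to 163 CPM against 5.04 to 19.5 CPM. For Notch3 at E14.5, from 5 mural UMIs, the interval of the ratio includes 1.

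Set side by side, the classes differed in which members they held. The members were chosen with earlier results of these data known. The shares of all genes beside the counts are therefore given for scale and not as a test of the list. In endothelium 6 of 10 members were higher (Notch1, Dll4, Jag1, Lfng, Hes1 and Hey1), where 21.0% of 13613 tested genes were higher, and Notch2 was lower, where 27.1% were. In stroma 4 were higher (Notch2, Notch3, Hey2 and Heyl; background 23.2%) and Dll4 lower (17.5%). In pregranulosa cells 3 were higher (Notch2, Hes1 and Hey1; 25.9%) and 4 lower (Notch1, Dll4, Jag1 and Lfng; 18.3%). In epithelium 2 were higher (Notch2 and Lfng; 12.2%) and Hey1 lower (7.33%). In germ cells none was higher, where 36.3% of genes were, and 9 were lower (33.5%), all but Jag1 (0.07 ± 0.51, edgeR adjusted p = 0.92). This holds for the members and not for the pathway as a whole. Of 5 other receptor and ligand genes tested, 3 were higher in germ cells and 1 lower, and 2 of 2 other targets were higher. Over all 36 other pathway genes tested, 11 were higher and 12 lower. The median log2 difference of the members was 1.82 in endothelium and -2.48 in germ cells, beside -0.15 and 0.04 over all tested genes. A class is set against a mean that includes endothelium, so a call of lower Dll4 or Notch1 elsewhere is partly a statement about endothelium, and the 5 contrasts share their sums.

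**Figure D5:**
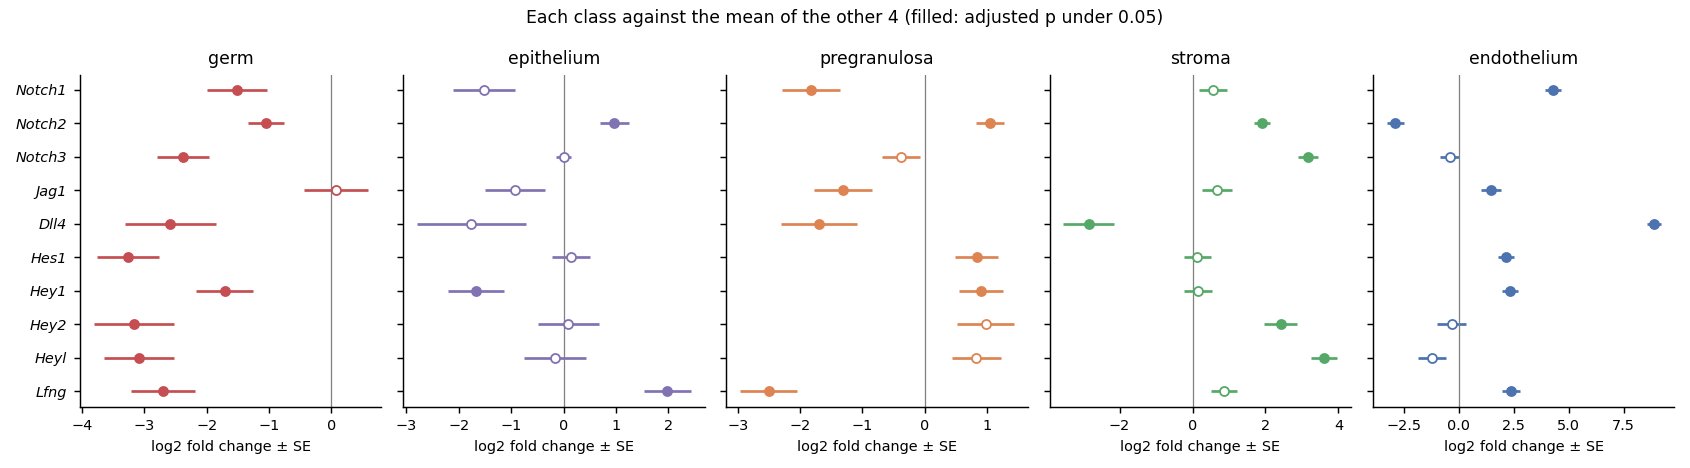
Log2 fold change (with its SE) of each member in a class against the mean of the other 4, from 34 sums of class and library, filled where the edgeR adjusted p was under 0.05; the horizontal axes differ in scale. Endothelial Dll4 lies at 8.88 and endothelial Notch1 at 4.30, and 9 of 10 members lie below 0 and are filled in germ cells.

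The order of the classes was also compared between neighbours in mean level, by an exact two-sided sign-flip permutation test over libraries. None of the 50 comparisons passed after adjustment (smallest adjusted p = 0.12). The smallest p that the test allows is 0.016 with 7 libraries and 0.031 with 6. Adjusted over 50 comparisons, a pair alone at this floor could not pass, so nothing is read from the lack of calls. The neighbours were also picked by the means of the same values. The erythroid cells were ranked as well. Among the 5 classes, neighbours kept one direction in 7 of 7 libraries for endothelium over stroma (Notch1), stroma over pregranulosa cells (Notch2 and Notch3), endothelium over epithelium (Dll4) and pregranulosa cells over epithelium (Hes1). For Jag1 the neighbours germ cells and stroma changed place, with germ cells higher in 2 of 6 libraries.

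The genes whose levels ran most like a member over the 34 sums, by Pearson's r of log2(CPM + 10) among 13613 genes, were named for description, since the sums share libraries and classes. Notch1 ran with Tmem255a (r = 0.952) and Eng, an endothelial coreceptor (0.951), and Dll4 with Zfp366 (0.986) and Clec1a (0.980). Notch3 ran with Twist1, a mesenchymal transcription factor (0.916), and Heyl with Mdga1 (0.869). Hey2 had Heyl as its nearest gene (0.775). Notch2 ran with Efs (0.858), Hes1 with Rnf122 (0.860), Jag1 with Rdx (0.817), Hey1 with Kif26a (0.787) and Lfng with Emid1 (0.705).

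Of 38 other genes of the pathway 36 could be tested. In endothelium 12 were higher and 7 lower, where 21.0 and 27.1% of all tested genes were. In germ cells the counts were 11 and 12 (background 36.3 and 33.5%), in pregranulosa cells 12 and 5 (25.9 and 18.3%), in stroma 8 and 8 (23.2 and 17.5%) and in epithelium 4 and 4 (12.2 and 7.33%). Nothing is read from counts that lie near these shares, as in stroma, germ cells and epithelium. Nrarp, a target and brake of the pathway, averaged 127 ± 45.7 CPM in endothelium and 4.54 CPM or less in the other classes. In pregranulosa cells it stood at 0.254 to 2.92 CPM up to P1 (1.86 CPM, 17 UMIs) and at 18.48 CPM at P5 (210 UMIs). It was also the single one of 29 such genes that was higher in mural cells, by 4.77 on the log2 scale, where 3.22% of all tested genes were higher. Mfng, another fringe enzyme, averaged 118 ± 19.4 CPM in endothelium and at most 1.32 CPM elsewhere.

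Among ligands, Jag2 averaged 41.2 ± 35.4 CPM in germ cells and 29.3 ± 15.8 CPM in endothelium, with means of at most 1.25 CPM in the other classes. Germ cells held 3.39 and 11.7 CPM at E12.5 and E14.5, below endothelium (15.0 and 21.8 CPM), and 93.0 CPM at P1. Dlk1, a relative of the ligands, averaged 783 ± 361 CPM in stroma and 220 ± 231 CPM in epithelium. The epithelial level was 604 CPM at E11.5, where stroma held 589 CPM, and 14.1 CPM at P5. Among the proteases, Psenen of the gamma-secretase complex averaged 319 ± 232 CPM in germ cells and 131 to 169 CPM in the other classes. Germ cell Psenen was 135 and 159 CPM at E12.5 and E14.5, below pregranulosa cells (163 and 186 CPM), and 720 CPM at P5. Aph1a of the same complex averaged 15.5 ± 6.03 CPM in germ cells and 66.1 ± 21.0 CPM in endothelium. Adam10, which makes the first cut, averaged 108 ± 34.9 CPM in pregranulosa cells and 28.9 ± 12.3 CPM in germ cells. In the nucleus Rbpj averaged 36.7 to 56.8 CPM over the 5 classes and was higher in germ cells alone, by 0.48 on the log2 scale, and Spen, a corepressor, averaged 31.8 to 51.9 CPM. Fbxw7, a ubiquitin ligase that removes the active receptor, averaged 117 ± 72.3 CPM in germ cells and 24.2 to 37.9 CPM elsewhere.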

How the data were processed

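RNA of single cells was captured in 10x Genomics droplets, 7 libraries in all. The authors ran Cell Ranger on mm10 and deposited raw UMI counts for each gene in each called cell, with no normalization. Each cell with at least 200 genes was gated: at least 3 UMIs over a marker pair with both present, or at least 2 UMIs of a single marker. UMIs were summed per class and library and given as CPM with 95% exact Poisson intervals. Class sums of at least 20 cells were compared with edgeR 4.0.16 in R 4.3.3 (TMM, filterByExpr, quasi-likelihood test, library as a block, since sums of a library share their cells' preparation), adjusted over all tested genes, called under 0.05. The spread is over ages, which serve as the replicates of a class. No doublet caller was run. Shares are given unthinned and thinned (in expectation) to 2000 UMIs per cell. Promoters came from RefSeq (GRCm38.p6) and positions from GENCODE vM21. Members and lists were chosen with earlier results of these data known. All 10 members are named; other pathway genes are named if among the 10 with the highest level in any sum among those called, and 3 like genes were found per member. The test was run on simulated counts, where 80 of 83 genes changed 4-fold and 48 of 76 changed 2-fold in endothelium were recovered, with 6 false calls among 13715 genes. Those counts gave all classes a single mean per gene, a fixed spread and library shifts shared by the classes. Real class levels also vary with age, so these shares need not hold for the data. The labels' wording (individual ovary) and the methods' (pooled) differ. The E12.5 library held cells of both sexes, with Y-linked UMIs in 85.9% of its Amh-positive and 2.34% of its Amh-negative pregranulosa-gated cells. It is thus not from an individual ovary. For the other libraries the wording was not checked further. Alternatives changed scaling, filter, tool, block, gates and libraries.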

Additional observations from a re-analysis of the deposited data

Results flagged for a closer look

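Notch2 in the erythroid cells of the E18.5 library stood at 30.6 CPM (95% exact interval 24.9 to 37.1, 102 UMIs), above the 0.779 to 4.77 CPM of the erythroid cells of the other 6 libraries. Apart from the ranking of classes by level, these cells enter no comparison, and they serve as the reference for free RNA. In that library 43 of 196 erythroid cells held a Notch2 UMI. Haemoglobin genes (Hba-a1, Hbb-bt and Hbb-y) took a median of 0.0829% of the UMIs in these 43 cells and 16.7% in the others, and their median depth was 33460 against 7932 UMIs. The 26 such cells of E16.5 and the 34 of P1 were also low in haemoglobin, at 0.695 and 1.19% against 26.5 and 13.2% in the others. Their median depth was 27980.5 and 20757.5 UMIs. Whether these cells are erythroid was not tested, so the reference for free RNA is not a clean one in these libraries. In endothelium of the same library Notch2 was 3.81 CPM. No age has more than 1 library, so values that stand apart within an age could not be sought.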

How the results depend on the processing

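Of 67 tests of a member in a contrast, 39 passed the threshold, 25 of these under every alternative run (17, or up to 15 for the Gng13 split), and none changed direction with a call. Of the 28 tests that did not pass, 11 passed under at least 1 alternative, among them Notch1 in epithelium under 6 and Lfng in stroma and Hes1 in mural cells under 5 each. Losses touched 14 calls: Notch1 in germ cells, Hey1 and Notch2 in epithelium, Dll4, Jag1, Hey1 and Hes1 in pregranulosa cells, Jag1 in endothelium, Notch1, Hey1, Hey2 and Notch3 in mural cells, and Hey2 and Notch3 in the Gng13 split. In mural cells the adjusted p without the library block was 0.22 (Notch1), 0.57 (Hey1), 0.35 (Hey2) and 0.053 (Notch3), and the folds of these 4 stayed positive. With no filter on low counts 833 genes differed between mural-marker and other stroma, against 540. With no replicate block (the library as the block left out) the counts were 52 for mural cells and 166 for Gng13, against 2305. With at least 50 cells per sum they were 1580 for epithelium, against 2652, and 340 for mural cells. With cells of several gates kept 4554 genes differed in epithelium. Leaving out each library in turn gave 9035 to 9589 genes for germ cells, 2045 to 2432 for epithelium, 5243 to 6024 for pregranulosa cells, 4742 to 5306 for stroma, 5692 to 6305 for endothelium, 244 to 775 for mural cells (244 without E16.5) and 1167 to 2747 for Gng13 (1167 without E16.5, 1395 without E18.5, 1532 without P1). The causes were not tested. Epithelium at E16.5 and E18.5 held 21 and 20 cells, so levels there rest on few UMIs.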

Other observations

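The pregranulosa gate of the E12.5 library held 99 Amh-positive cells, of which 85.9% had a UMI of a Y-linked gene, against 2.34% of the 1199 Amh-negative cells, although the library is labelled as ovary. Notch1 was 15.3 CPM in the Amh-positive and 2.93 CPM in the Amh-negative cells, a ratio of 5.23 (95% exact interval 3.07 to 8.73). Notch3 was 0.612 against 6.18 CPM, from 1 and 93 UMIs. Hey1 (33.0 and 33.4 CPM) and Notch2 (18.3 and 17.95 CPM) had ratios whose intervals included 1. Amh-positive cells were split off after their values were seen, and these are values of 1 library.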
